A study of Mus musculus with 2 samples.

Results

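A set of 723 barcodes, treated as hepatocytes, had many transcripts of Gbp5, Ripk2, Rnd1 and Dennd4a. They were described in 2 single-cell libraries of mouse liver taken during acute immune hepatitis. The members were chosen by a count rule, here called the gate. A barcode had to hold at least 200 genes, at most 25% mitochondrial UMIs (unique molecular identifiers, each counting 1 captured transcript) and 0 UMIs over Ptprc, Ptprb and Dcn, which mark leukocytes, endothelium and fibroblasts. Of these eligible barcodes, a member carried at least 4 UMIs summed over the 4 gate genes, from at least 2 of them. The rule kept 384 of 2601 eligible barcodes in the library labelled scramble (the scramble library) and 339 of 2838 in the library labelled shBicd2, or 723 of 5439 eligible and 5843 deposited barcodes. The comparators were the 1181 and 1498 eligible barcodes with 0 UMIs of all 4 genes.

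The mice behind both libraries were wild-type C57BL/6J. An AAV (adeno-associated virus) was given at an age of 4 weeks, and 3 weeks afterwards concanavalin A (Con A) was injected intravenously at 15 mg/kg. Livers were collected 6 hours after the injection. Con A is a plant lectin that activates T cells and causes immune liver injury. One group received AAV-scramble, the control hairpin, and the other AAV-shBicd2, a hairpin named for the dynein adaptor gene Bicd2. Each group had 1 library, untreated liver was not analysed here, and the labels give neither the number of mice behind a library nor the promoter of the hairpin. All differences below therefore carry counting error only and no test, and differences between mice cannot be told apart from differences between hairpins. Levels are given as CPM, the UMIs of a gene scaled to a total of 1000000 UMIs. Over all deposited barcodes, Bicd2 was at 16.3 CPM (83 UMIs, exact Poisson 95% interval 13.0 to 20.3) in the scramble library. It was at 19.2 CPM (108 UMIs, 15.8 to 23.2) in the library labelled shBicd2. The targeted gene was thus not lower in the library labelled shBicd2.

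Guanylate-binding proteins such as Gbp5 are large GTPases induced by interferon that coat intracellular pathogens and promote inflammasome activation. Ripk2 encodes the kinase that carries the signal of the NOD1 and NOD2 peptidoglycan sensors to NF-kB, the transcription factor family behind many inflammatory genes. Rnd1 encodes a small GTP-binding protein that lacks GTPase activity and loosens the actin cytoskeleton, and Dennd4a encodes a DENN-domain exchange factor for the vesicle GTPase Rab10. During Con A hepatitis, interferon gamma and tumour necrosis factor from activated lymphocytes and macrophages act on hepatocytes, which then make chemokines, antigen-presentation proteins and defence GTPases.

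In the mouse annotation of build GRCm38, Gbp5 lies at chr3:142493978-142522344 on the plus strand. Ripk2 lies at chr4:16122733-16163647 on the minus strand. Rnd1 lies at chr15:98663421-98677461 on the minus strand, and Dennd4a at chr9:64811340-64919667 on the plus strand. All 4 are protein-coding genes on different chromosomes.

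Promoter sequences are shown for the gate genes Gbp5 and Dennd4a and for 8 genes outside the gate that the results turn on, so that the motifs counted further on can be read in place. Each is the 250 bases before a RefSeq transcription start in GRCm38.p6, printed 5′ to 3′ on the strand of the gene. Capitals mark matches on either strand to either of a pair of NF-kB consensus motifs, to the interferon-stimulated response element (GAAA, any 2 bases, GAAA), to the interferon gamma-activated (GAS) motif TTCNNNGAA or to the AP-1 motif TGACTCA. The GAS motif is its own reverse complement, and matches of different motifs may overlap. For Gbp5, the RefSeq start lies inside the longer gene span given above.
Gbp5 promoter, chr3:142496684-142496933, plus strand: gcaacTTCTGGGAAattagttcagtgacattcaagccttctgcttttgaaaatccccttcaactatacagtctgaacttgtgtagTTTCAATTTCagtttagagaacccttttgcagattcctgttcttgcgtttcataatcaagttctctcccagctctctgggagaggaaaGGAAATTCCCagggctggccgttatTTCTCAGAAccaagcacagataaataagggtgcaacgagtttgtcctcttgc
Dennd4a promoter, chr9:64810761-64811010, plus strand: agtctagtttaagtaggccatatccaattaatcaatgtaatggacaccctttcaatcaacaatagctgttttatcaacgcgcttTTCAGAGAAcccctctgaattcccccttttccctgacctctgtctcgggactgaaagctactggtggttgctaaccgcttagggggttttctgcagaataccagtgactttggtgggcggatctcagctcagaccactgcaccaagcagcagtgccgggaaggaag
Gbp2 promoter, chr3:142620413-142620662, plus strand: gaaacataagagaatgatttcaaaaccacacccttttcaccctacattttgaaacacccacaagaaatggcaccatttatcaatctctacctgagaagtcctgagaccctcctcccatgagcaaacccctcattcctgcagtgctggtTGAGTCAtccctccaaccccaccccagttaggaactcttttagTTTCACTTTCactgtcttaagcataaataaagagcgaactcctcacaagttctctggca
Gbp7 promoter, chr3:142530086-142530335, plus strand: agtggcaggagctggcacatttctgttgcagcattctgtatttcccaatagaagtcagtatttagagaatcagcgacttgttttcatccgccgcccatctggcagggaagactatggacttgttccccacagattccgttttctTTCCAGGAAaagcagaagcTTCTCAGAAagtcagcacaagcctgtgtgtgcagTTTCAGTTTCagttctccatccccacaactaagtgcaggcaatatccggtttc
Irf1 promoter, chr11:53769764-53770013, plus strand: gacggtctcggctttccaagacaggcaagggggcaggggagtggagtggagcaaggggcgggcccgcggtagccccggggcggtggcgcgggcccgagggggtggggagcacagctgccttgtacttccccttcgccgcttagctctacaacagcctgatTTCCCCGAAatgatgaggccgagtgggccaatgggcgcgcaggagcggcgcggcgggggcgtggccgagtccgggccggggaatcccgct
Cxcl10 promoter, chr5:92348890-92349139, minus strand: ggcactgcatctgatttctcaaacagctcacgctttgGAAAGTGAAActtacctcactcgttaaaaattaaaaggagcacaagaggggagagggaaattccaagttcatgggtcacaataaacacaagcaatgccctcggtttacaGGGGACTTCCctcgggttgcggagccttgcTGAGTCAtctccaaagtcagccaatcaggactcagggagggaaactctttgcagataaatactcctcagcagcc
Cxcl2 promoter, chr5:90903649-90903898, plus strand: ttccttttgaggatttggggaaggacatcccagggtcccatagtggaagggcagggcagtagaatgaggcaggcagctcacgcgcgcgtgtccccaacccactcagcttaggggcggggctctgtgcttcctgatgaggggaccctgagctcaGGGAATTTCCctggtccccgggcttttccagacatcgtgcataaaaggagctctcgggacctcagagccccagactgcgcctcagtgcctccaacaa
Cxcl1 promoter, chr5:90890995-90891244, plus strand: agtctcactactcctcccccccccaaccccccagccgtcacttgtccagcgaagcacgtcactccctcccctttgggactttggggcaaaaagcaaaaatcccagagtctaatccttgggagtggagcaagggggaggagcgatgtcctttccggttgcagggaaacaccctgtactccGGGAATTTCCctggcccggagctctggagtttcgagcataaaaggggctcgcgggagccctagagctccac
Tnfaip3 promoter, chr10:19015411-19015660, minus strand: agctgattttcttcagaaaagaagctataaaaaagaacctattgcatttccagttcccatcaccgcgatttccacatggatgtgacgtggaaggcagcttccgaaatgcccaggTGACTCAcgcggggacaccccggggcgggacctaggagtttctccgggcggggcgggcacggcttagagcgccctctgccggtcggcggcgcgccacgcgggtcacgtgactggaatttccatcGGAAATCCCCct
Nfkbia promoter, chr12:55492648-55492897, minus strand: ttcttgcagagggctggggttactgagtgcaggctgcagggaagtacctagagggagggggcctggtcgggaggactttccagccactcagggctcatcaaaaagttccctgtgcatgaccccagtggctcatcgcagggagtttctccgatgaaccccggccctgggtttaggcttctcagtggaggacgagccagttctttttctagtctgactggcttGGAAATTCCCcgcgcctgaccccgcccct

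The Gbp5 window held an NF-kB motif 77 bases before the start, an interferon-stimulated response element and a pair of GAS motifs. The Dennd4a window held 1 GAS motif, 166 bases before the start, and no other searched motif. Of the gate genes, Ripk2 and Rnd1 are named only. The Cxcl2, Cxcl1 and Nfkbia windows each held an NF-kB motif and no other searched motif. Cxcl10 held an NF-kB, an interferon-stimulated and an AP-1 motif. Among the 213 genes higher in members (by the rule given below) that had a promoter entry, 5.16% held either NF-kB motif, against 0.363% of 551 lower genes, 0.685% of 3794 measured genes and 0.644% of all 27025 promoters. The interferon-stimulated element was held by 8.45% of higher, 2.18% of lower and 2.82% of measured genes, and by 3.04% of all promoters. The GAS motif was held by 7.98%, 4.72% and 5.85% of the same 3 sets and by 7.18% of all promoters. The AP-1 motif was held by 5.16%, 3.27% and 2.93%, and by 4.43% of all. Of the 9 interferon-inducible GTPase genes with a promoter, 8 held the interferon-stimulated element and 0 held an NF-kB motif. Of the 10 NF-kB list genes with a promoter, 5 held an NF-kB motif and 0 the interferon-stimulated element. These are letter matches in 1 window per gene and not measured binding.

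The gate selected deep barcodes, because raw UMIs were counted. Members had a median of 2534.5 UMIs in the scramble library and 2880 in the library labelled shBicd2, against 1283 and 1272 in comparators. Members made up 14.8% of eligible barcodes in the scramble library (exact binomial 95% interval 13.4 to 16.2) and 11.9% in the library labelled shBicd2 (10.8 to 13.2). Each eligible barcode was then thinned to 1000 UMIs, and 670 and 777 barcodes below that depth were dropped. Of the rest, 6.32% (5.27 to 7.5) and 4.61% (3.75 to 5.61) still passed. The share was higher in the scramble library on both scales. After thinning, the intervals overlapped.

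Rnd1 gave the largest share of the gate signal in both libraries, 44.7% of the members' gate UMIs in the scramble library and 53% in the library labelled shBicd2. A Rnd1 UMI was present in 88.8% and 94.7% of members. Ripk2 UMIs were present in 68.8% and 78.5% of members, Gbp5 UMIs in 62.8% and 58.4%, and Dennd4a UMIs in 63.5% and 43.4%. All 4 genes were detected in 75 and 54 members, any 3 in 172 and 146, and only 2 in 137 and 139. Gate totals ran from 4 to 39 UMIs with a median of 7 in the scramble library, and from 4 to 28 with a median of 6 in the library labelled shBicd2. As these values chose the members, they are a description.

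Each gate gene was also looked at in barcodes chosen by at least 3 UMIs over the other 3 genes. These were set against depth-matched barcodes with 0 over those 3. The gate was chosen with earlier results of these data known, so these ratios are a description. Ripk2 was at 498 CPM against 54.3 in the scramble library and 426 against 49.0 in the library labelled shBicd2, ratios of 9.17 (7.09 to 12.0) and 8.69 (6.69 to 11.4). Rnd1 was at 1244 against 205 and at 1111 against 198, ratios of 6.08 (5.25 to 7.05) and 5.62 (4.83 to 6.56). Gbp5 was at 499 against 99.1 and at 300.0 against 53.7, ratios of 5.04 (4.14 to 6.16) and 5.59 (4.32 to 7.29). Dennd4a was at 384 against 122 and at 155 against 53.5, ratios of 3.14 (2.61 to 3.79) and 2.90 (2.19 to 3.86). Each gene was higher, in both libraries, where the other 3 summed to at least 3 UMIs, and Dennd4a had the smallest ratio in both.

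**Figure D1:**
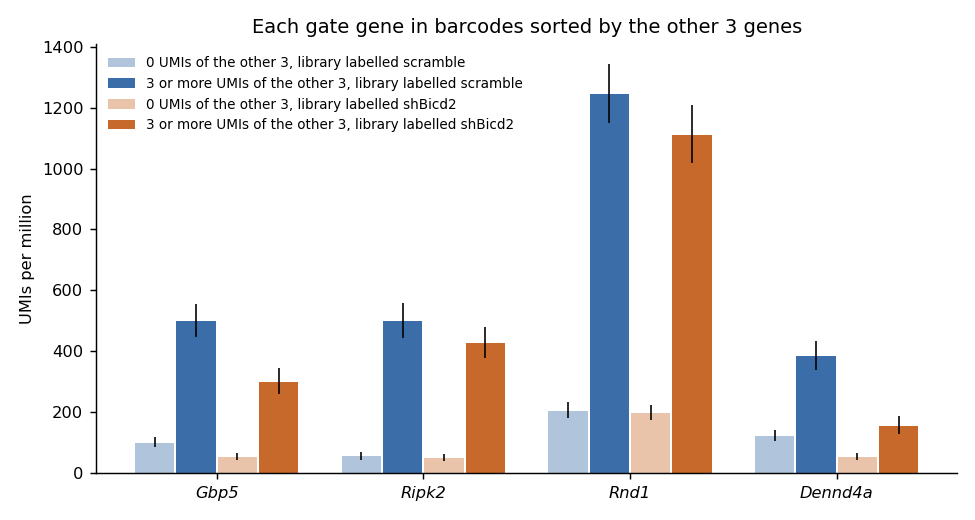
Level of each gate gene (CPM, vertical axis) in barcodes chosen by the other 3 gate genes, for both libraries; dark bars are barcodes with at least 3 UMIs of the other 3 genes, pale bars depth-matched barcodes with 0, and lines are exact Poisson 95% intervals. Every dark bar stands above its pale bar, from 155 against 53.5 for Dennd4a to 1244 against 205 for Rnd1.

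The hepatocyte label was checked against marker lists. All 14 hepatocyte markers were detected in members, at 1.69% of UMIs against 1.81% in matched comparators of the scramble library and 1.65% against 2.58% in the library labelled shBicd2. Barcodes with at least 2 UMIs of B cell markers, which should lack these transcripts, carried 1.26% and 2.08%, so the share of this list did not separate the members from barcodes of another type. Monocyte and macrophage markers made up 0.00238% of UMIs in members against 0.00308% in comparators (library labelled scramble) and 0.00814% against 0.00644% (library labelled shBicd2). Of these 16 markers, 8 were at 0 in matched members and 4 in comparators of the scramble library, and 6 and 3 in the library labelled shBicd2. Cd68, a macrophage marker, was at 31.7 CPM in matched members (21 UMIs) against 11.4 in comparators (17 UMIs) of the library labelled shBicd2. There Clec4f, Cd5l, Vsig4, Marco, Fcgr1, C1qa and C1qc were also higher in members, whereas Csf1r, Lyz2, Ccr2, Ly6c2 and C1qb were lower. T cell markers had 6 and 0 UMIs in all matched members, with 9 and 12 of the 12 markers at 0, against 8 and 8 in comparators. The neutrophil list was at 0.00579% against 0.00570% and at 0.0339% against 0.0285%. Ly6g was at 0 in members and in comparators of the scramble library. S100a8, a neutrophil marker, was at 140 CPM in members against 77.2 in comparators of the library labelled shBicd2. In that library S100a9, Csf3r, Camp and Ly6g were also higher in members, whereas Retnlg, Ngp, Ltf, Mmp8, Mmp9 and Cxcr2 were lower. Barcodes with at least 2 UMIs of any of 10 other-type marker lists made up 10.0% of matched members against 7.79% of comparators, and 24.5% against 17.8%. These lists leave out cholangiocytes and include erythroid (red blood cell) markers, which gave the most such barcodes. At least 2 erythroid UMIs were held by 16 of 269 matched members and 30 of 693 comparators in the scramble library. In the library labelled shBicd2 these were 34 of 257 and 61 of 663. The part of other cell types in the results was not tested. Values for members without 2 or more UMIs of any other-type list are given further on, over genes that were chosen on the members.

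The gate genes were also detected in barcodes that carried Ptprc, Ptprb or Dcn UMIs, which the rule leaves out. After thinning, 10.8% (11 of 102) and 1.09% (1 of 92) of those barcodes passed the gate. Among barcodes with at least 2 UMIs of monocyte and macrophage markers, 20% (3 of 15) and 15.6% (7 of 45) passed. In the same macrophage-marker barcodes, Gbp5 was present in 46.7% and 26.7%, above its 13.4% and 8.98% of thinned eligible barcodes, whereas Rnd1 was present in 20% and 20% against 23.3% and 24.6%. Dennd4a was present in 40.0% (15 barcodes) and 31.2% (16 barcodes) of thinned barcodes with B cell markers, against 15.1% and 7.42% of eligible ones. The gate genes were thus also seen where leukocyte markers were, in shares that rest on few barcodes.

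For all other genes, members were matched with up to 3 comparators of nearly the same depth, within 0.1 log2 unit, in their own library. Comparators were found for 269 and 257 members (693 and 663 comparators). The remaining 115 and 82 members, with medians of 3869 and 4354 UMIs, had none and were left out of this comparison. They did enter the comparison between the libraries, and some entered the ratios by gate UMIs, which were matched anew. Median depth outside the gate genes was 2013 UMIs in matched members against 1750 in comparators, and 2395 against 2097. Levels are CPM outside the gate genes, and ratios are members over comparators with exact 95% counting intervals. A gene was measured when it had at least 50 UMIs in each library, over matched members and their comparators together. It was counted as higher or lower when its ratio passed 1.5-fold in the same direction in both libraries. Of 4727 measured genes, 288 (6.09%) were higher in members and 697 (14.7%) were lower. In the scramble library by itself 8.78% were higher and 20.4% lower, and in the library labelled shBicd2 14.8% and 40.9%. The median log2 ratio over all measured genes was −0.17 and −0.37. When ratios were rescaled to a median of 0, 491 genes were higher and 350 lower, so the predominance of lower genes was not kept.

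The 14 genes highest in members, ranked by the library whose ratio was nearer to 1, included the chemokine genes Cxcl2, Ccl2 and Cxcl10. Cxcl2, which draws neutrophils through the receptor CXCR2, led the ranking. It was at 1690 CPM in members against 120 in comparators of the scramble library, and at 3129 against 269 in the library labelled shBicd2. These were ratios of 14.1 (11.9 to 16.8) and 11.7 (10.5 to 13.0). Ccl2, the main monocyte chemokine, was at 425 against 72.4 and at 1885 against 132, ratios of 5.87 (4.62 to 7.53) and 14.3 (12.3 to 16.6). Cxcl10, the interferon-induced ligand of CXCR3 on T cells, was at 4177 against 948 and at 3730 against 503, ratios of 4.40 and 7.41. All 3 were higher in members of both libraries, and Ccl2 and Cxcl10 had the larger ratio in the library labelled shBicd2.

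Pcyox1, an enzyme that breaks down prenylcysteine from spent prenylated proteins, ranked second. It was at 807 against 84.8 and at 623 against 53.7 CPM, ratios of 9.52 (7.72 to 11.8) and 11.6 (9.11 to 14.9). Nos2, the inducible nitric oxide synthase, was at 158 against 25.4 and at 445 against 70.5, ratios of 6.22 and 6.31. Irf1, the interferon regulatory factor that drives late interferon gamma targets, was at 1695 against 388 and at 2666 against 475, ratios of 4.36 and 5.62. Tnfaip3 (A20), a ubiquitin-editing brake on NF-kB and on RIPK2, had ratios of 4.32 and 6.23. Icam1, the adhesion ligand of leukocyte integrins, had ratios of 4.24 and 5.42. The other highest genes were Gprin3 (5.85 and 8.24), the stress gene Gadd45b (5.44 and 5.78), the thioredoxin inhibitor Txnip (4.63 and 5.82), the purine enzyme gene Lacc1 (4.79 and 4.40), the vasodilator peptide gene Adm (5.86 and 4.30) and the GTPase gene Gbp3 (4.22 and 6.18).

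**Figure D2:**
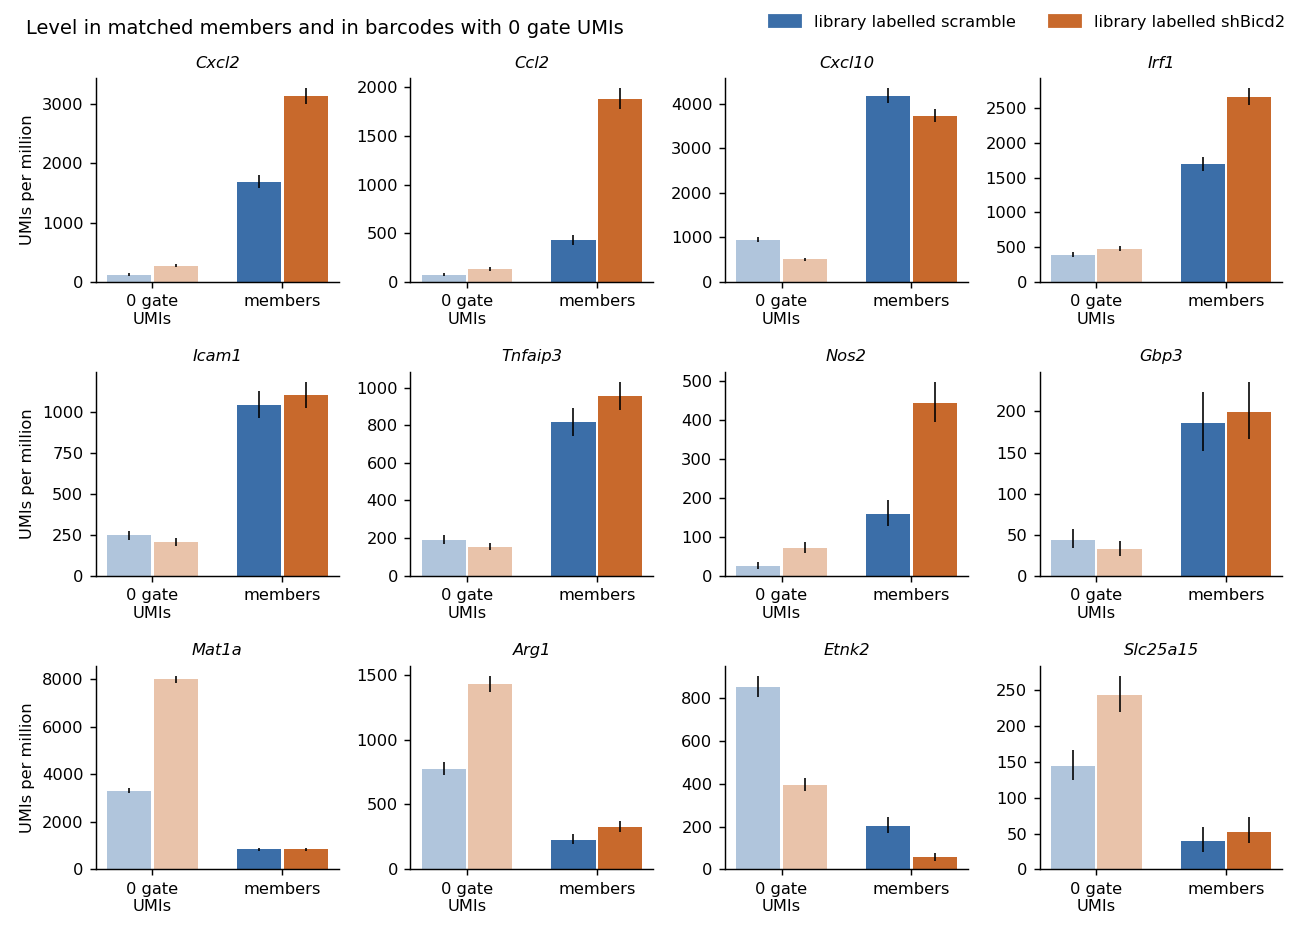
Level of 12 genes (CPM, vertical axes that differ between panels) in matched members and in barcodes with 0 gate UMIs of each library, with exact Poisson 95% intervals as lines. In the upper 8 panels both member bars stand above both comparator bars (Cxcl2 at 1690 and 3129 against 120 and 269), and in the lower 4 panels both lie below them (Mat1a at 837 and 846 against 3306 and 7990).

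The 14 lowest genes included Mat1a, Arg1, Etnk2 and Hal, enzymes of hepatocyte metabolism. Mat1a, which makes the methyl donor S-adenosylmethionine in adult liver, was at 837 CPM in members against 3306 in comparators of the scramble library. In the library labelled shBicd2 it was at 846 against 7990. Its ratios were 0.253 (0.230 to 0.278) and 0.106 (0.0971 to 0.115). Member levels of Mat1a were alike in the libraries, whereas comparator levels were not. Arg1, the last enzyme of the urea cycle, was at 230 against 775 and at 327 against 1429, ratios of 0.296 and 0.229. Etnk2, an ethanolamine kinase, was at 202 against 851 and at 55.8 against 395, ratios of 0.238 and 0.141.

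Mfsd2a, a lysophosphatidylcholine transporter, had ratios of 0.230 and 0.165. The mitochondrial ornithine carrier gene Slc25a15 had 0.272 and 0.217, the histidine-degrading Hal 0.272 and 0.0936, and the coenzyme A carrier gene Slc25a42 0.296 and 0.199. Other lowest genes were Dcaf10 (0.290 and 0.281), Rgl3 (0.292 and 0.206), the ER co-chaperone gene Sdf2l1 (0.301 and 0.235), Tedc2 (0.303 and 0.294) and Tmem29 (0.311 and 0.262). Hal, Rgl3, Slc25a42, Sdf2l1 and Tmem29 had at most 13 UMIs in the members of each library. All 14 were lower in members of both libraries.

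**Figure D3:**
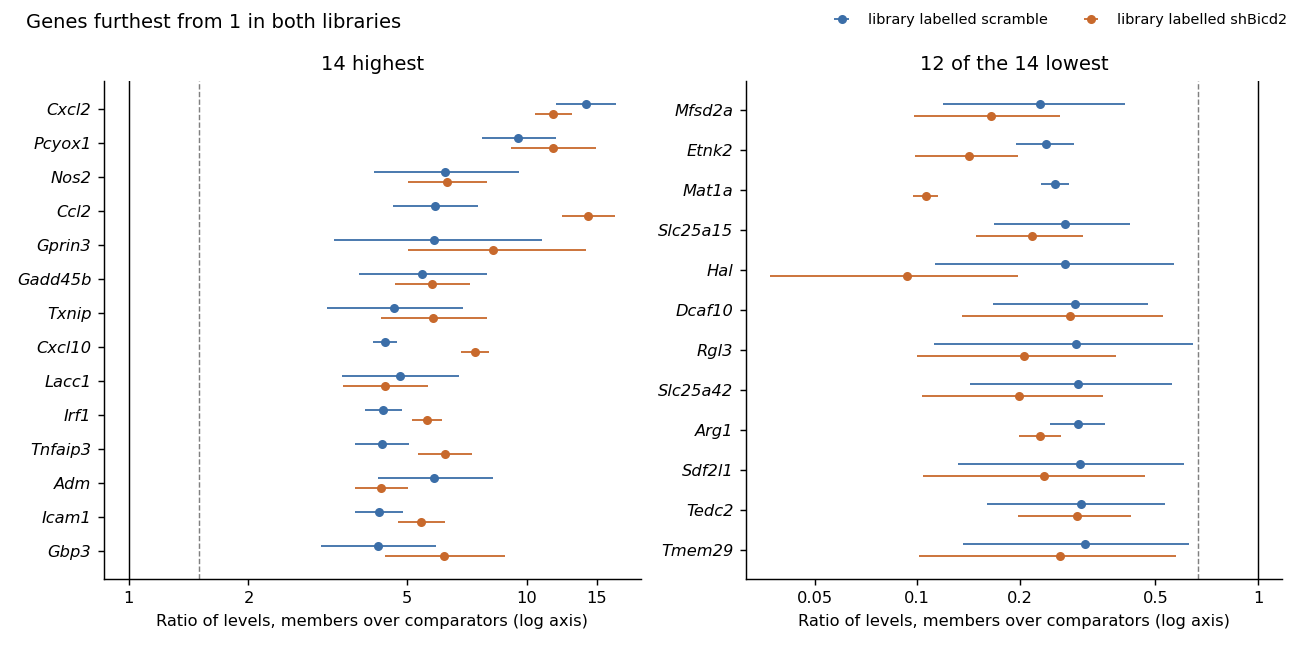
Ratio of levels, members over comparators (log axis), for the 14 highest and 12 of the 14 lowest genes, with exact 95% counting intervals as lines, a solid line at 1 and a dashed line at the 1.5-fold threshold. All genes shown lie on the same side of 1 in both libraries, for example Cxcl2 at 14.1 and 11.7 and Hal at 0.272 and 0.0936.

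Most relatives of Gbp5 were higher in members. Of 14 measured interferon-inducible GTPases, 11 were higher and 0 lower, against 6.09% and 14.7% of all genes. Their median log2 ratio was 1.0 and 1.58. Gbp4 was at 512 against 125 CPM and at 780 against 98.7, ratios of 4.10 and 7.90. Gbp6 was at 1160 against 407 and at 914 against 154, ratios of 2.85 and 5.94. Gbp7 had ratios of 2.02 and 2.06, Gbp2 2.96 and 3.26, and Irgm1, a GTPase that regulates the others, 1.52 and 2.43. Iigp1, the most abundant of the list, was at 5391 against 4302 and at 4741 against 3992, and its ratios of 1.25 and 1.19 did not reach the threshold. Gbp6 and Gbp10, and Tgtp1 and Tgtp2, are near-identical copies whose reads may have been divided between them.

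The wider interferon gamma list had 9 of 17 measured genes higher and 0 lower, with medians of 0.66 and 0.66. Over all measured genes, 6.09% were higher and 14.7% lower. Cxcl9, the second CXCR3 ligand, was at 2076 against 519 and at 1894 against 514 CPM, ratios of 4.00 and 3.69. Cd274 (PD-L1), an inhibitory ligand for T cells, had ratios of 2.66 and 2.63. Socs1, the feedback inhibitor of interferon signalling, was at 738 against 729 and at 621 against 673. It did not pass the threshold. In the JAK-STAT and SOCS list, 3 of 21 genes were higher (Stat5a, Stat5b and Ifnar2) and 0 lower, with the interval of Stat5a in the scramble library reaching 0.957. In the type I interferon list, 5 of 13 were higher and 0 lower, among them Ifit1 (2.19 and 3.01) and Isg15 (1.63 and 2.09). Zbp1, the most abundant of that list, had ratios of 0.885 and 0.763. Of 12 measured class I antigen-presentation genes, 8 were higher and 0 lower, with H2-K1 at 3461 against 1767 and 5917 against 2286, and B2m at 1.45 and 1.65. The class I heavy chains are close copies, and their reads may be shared between them.

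On the side of Ripk2, 11 of 14 measured NF-kB feedback genes and targets were higher and 0 lower, with medians of 1.5 and 1.62. The shares over all measured genes were 6.09% higher and 14.7% lower. Nfkbia, the inhibitor that retains NF-kB in the cytoplasm, was at 1035 against 435 and at 1717 against 468 CPM, ratios of 2.38 and 3.67. Birc2 (cIAP1), a ubiquitin ligase of tumour necrosis factor and NOD signalling, had ratios of 2.72 and 4.22, and its relative Birc3 4.86 and 3.70. The NF-kB subunits Nfkb1 (3.05 and 2.79), Relb (2.53 and 2.45), Rel (2.79 and 2.66) and Nfkb2 (2.88 and 2.12) were also higher. Rela, the subunit counted in the narrower list, had ratios of 2.95 and 2.64. That list, of NOD and RIPK2 signalling, had 5 of 17 measured genes higher (Birc2, Birc3, Tnfaip3, Rela and Otulin) and 0 lower, and its medians were 0.09 and −0.20. Xiap, the ligase that joins ubiquitin to RIPK2, was at 427 against 498 and at 437 against 506, and its ratio in the library labelled shBicd2 was 1.12 after rescaling to the median. Birc2, Birc3 and Tnfaip3 stand in both lists.

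All 5 measured chemokines were higher (medians 2.14 and 2.89), including Cxcl1, a neutrophil chemokine at 4533 against 1754 and 5467 against 1649 CPM. Of 16 immediate early and AP-1 genes, 9 were higher and 0 lower. Zfp36, which destabilises cytokine messenger RNA, was at 2717 against 1444 and at 2842 against 1124, and Junb had ratios of 1.41 and 2.45. The acute phase list, the classical hepatocyte response to interleukin 6, had 3 of 20 higher (Saa3, Apcs and Crp) and 0 lower. Saa1 had ratios of 1.22 and 0.991, Fgg 0.780 and 0.377, and Saa3 1.79 and 2.22. In the oxidative stress list, Hmox1 (3.04 and 2.52), Sqstm1 (2.53 and 3.32) and Osgin1 (2.08 and 1.97) were higher of 9 measured. In the p53 target list, 2 of 9 were higher (Gdf15 and Trp53inp1) and 1 lower (Zmat3). In the cell death list, 1 of 10 was higher, the death receptor gene Fas (1.86 and 3.06), and 0 lower. For all measured genes these shares were 6.09% higher and 14.7% lower, so lists with few such genes are read as counts only.

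The lists built around Rnd1 and Dennd4a had no common direction. Of 13 measured small GTPases, plexins and partners of Rnd proteins, 2 were higher and 2 lower, against 6.09% and 14.7% of all measured genes. Rnd3, the closest relative, was at 550 against 240 and at 780 against 215 CPM, ratios of 2.29 (1.95 to 2.68) and 3.63 (3.15 to 4.18). Rhob had ratios of 2.05 and 3.13. Arhgap5, a known effector of Rnd proteins, had ratios of 0.981 and 1.07, and the plexin gene Plxnb1 0.960 and 0.394. The neuropilin gene Nrp1 (0.603 and 0.326) and the adaptor gene Grb7 (0.517, interval 0.242 to 1.01, and 0.481) were lower. Of 9 DENN-domain genes and Rab partners, 1 was higher (Dennd5a, 2.69 and 2.03) and 0 lower. Dennd5b, the most abundant of these, had ratios of 0.699 and 0.504.

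On the side of hepatocyte metabolism, 9 of 11 measured periportal genes were lower and 0 higher, with medians of −1.17 and −1.23. Among all measured genes, 14.7% were lower and 6.09% higher. Pck1, which encodes an enzyme of gluconeogenesis, was at 756 against 2059 and at 483 against 1320 CPM, ratios of 0.367 and 0.366. Cps1, which starts the urea cycle, had ratios of 0.422 and 0.248, and the serine-degrading Sds 0.388 and 0.291. Of 5 measured pericentral genes 0 passed in either direction, with Glul at 1.46 and 1.66 and Cyp2e1 at 0.679 and 0.524. In the sterol list 6 of 12 were lower and 0 higher, including Fdps (0.426 and 0.235). In the lipid list 5 of 11 were lower and 0 higher. Of 12 ER stress genes 5 were lower and 0 higher, among them the chaperone gene Hspa5 (0.556 and 0.298).

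Of 13 hepatocyte transcription factors, 1 was lower (Nr1h3, 0.643 with an interval to 1.03, and 0.368) and 0 higher, and after rescaling to the median 0 were lower. Others were Cebpb at 1.11 and 1.49, Onecut2 at 0.971 and 0.490 and Prox1 at 0.696 and 0.382. Hnf4a, the master regulator of hepatocyte identity, singled out after its values were seen, was at 158 against 217 and at 57.3 against 182 CPM, ratios of 0.731 (0.572 to 0.927) and 0.315 (0.218 to 0.443). Bile acid genes (0 and 0 of 9) and keratin and YAP target genes (0 and 0 of 5) had none past the threshold in both libraries. Among 6 nuclear noncoding RNAs, 3 were lower (Kcnq1ot1, Gas5 and Snhg1) and 0 higher, with Neat1 at 1.05 and 1.95 and Malat1 at 0.887 and 0.661 (1.0 in the scramble library after rescaling). Heat shock genes had 2 of 10 higher (Hspa1b and Hspe1) and 0 lower. All measured genes had 6.09% higher and 14.7% lower. Genes higher in members had a median gene length on the chromosome of 19.7 kb and lower genes 24.7 kb, against 27.1 kb for all measured genes.

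**Figure D4:**
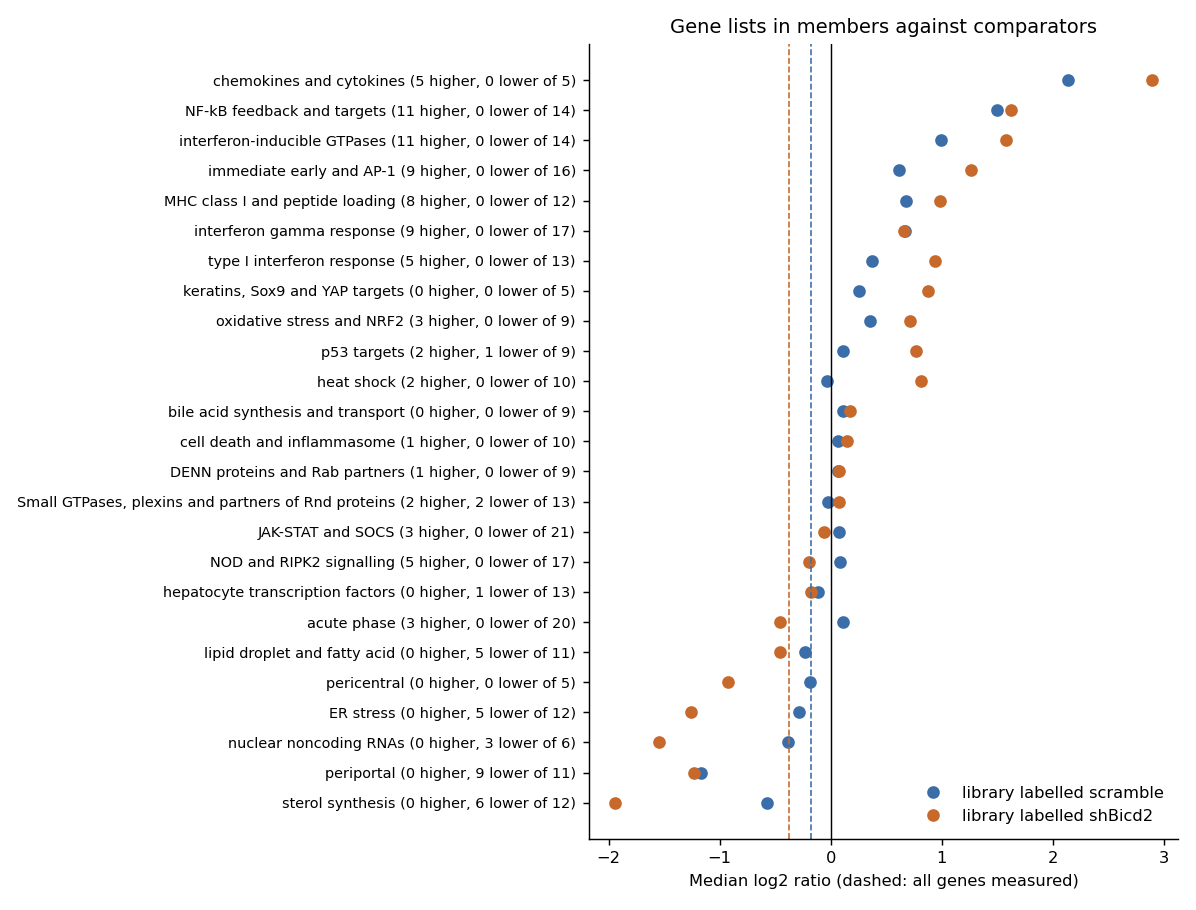
Median log2 ratio, members over comparators (horizontal axis), of 25 gene lists in both libraries, with dashed lines at the median of all measured genes (−0.17 and −0.37) and, after each name, the genes past 1.5-fold in both libraries. Chemokines (2.14 and 2.89), NF-kB targets (1.5 and 1.62) and interferon-inducible GTPases (1.0 and 1.58) lie furthest to the right, and periportal (−1.17 and −1.23) and sterol synthesis genes (−0.57 and −1.94) lie to the left of both dashed lines.

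Detection in single barcodes was compared after thinning members and all comparators to 1000 UMIs outside the gate genes. Cxcl2 was detected in 47.4% of members against 7.35% of comparators in the scramble library (60.4% against 11.4% before thinning), and in 71.2% against 19.6% in the library labelled shBicd2 (87.1% against 30.4%). Cxcl10 was detected in 69.9% against 26.3% and in 77.6% against 26.1%. Cxcl2 and Cxcl10 were found in the same barcode in 36.7% of members against 3.74% of comparators, and in 58.6% against 6.74%. Neither was found in 19.4% and 9.82% of members. Joint detection rises when each gene is detected more often, and a link between them within a barcode was not tested. Irf1 was detected in 62.7% against 23.2% and in 74.8% against 29.2%. Nos2 was detected in 13.0% against 1.81% and in 26.4% against 5.80%. Mat1a was detected in 34.4% against 69.3% and in 38.0% against 85.7%. Albumin was detected in 47.4% against 49.8% and in 60.7% against 59.4%.

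The same genes were followed through barcodes with fewer gate UMIs, a division chosen after the data were seen. Barcodes with 3 gate UMIs (154 and 161) lay just outside the gate and those with exactly 4 (100 and 91, including those with only 1 gate gene detected) just inside it. Cxcl2 had ratios of 5.86 and 6.62 at 3 UMIs and of 11.8 and 8.42 at 4 UMIs. Over the whole range its ratio went from 1.79 (1.46 to 2.20) and 2.13 (1.90 to 2.39) at 1 UMI to 18.0 (14.4 to 22.7) and 17.5 (15.3 to 20.3) at 8 or more. Cxcl10 went from 1.19 and 1.68 to 5.42 and 10.6, and Irf1 from 1.19 and 1.63 to 4.62 and 6.74. Mat1a went from 0.925 and 0.696 to 0.255 and 0.0870. The median log2 ratio of the 14 highest genes was 0.64, 0.94, 1.73, 1.99, 1.98 and 2.40 over the 6 classes in the scramble library, and 0.75, 1.62, 2.21, 2.39, 2.82 and 2.78 in the library labelled shBicd2. The classes drew on the same comparators, and the 14 genes were chosen on the members.

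**Figure D5:**
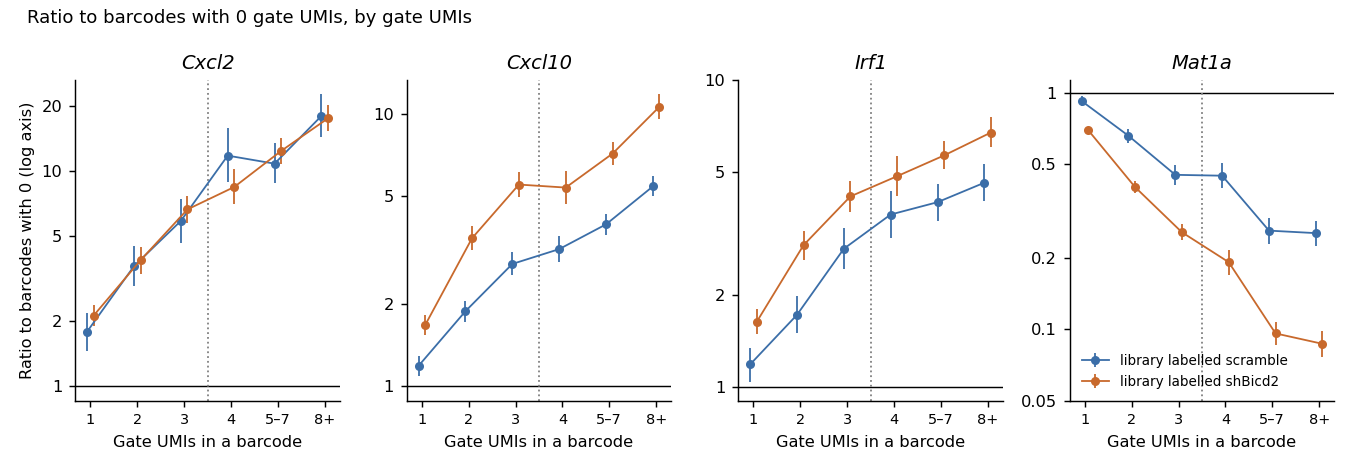
Ratio of levels to depth-matched barcodes with 0 gate UMIs (log axes that differ between panels) for 4 genes, by the number of gate UMIs in a barcode (horizontal axis), with exact 95% counting intervals as lines and a dotted line at the member threshold. Cxcl2 runs from 1.79 and 2.13 at 1 UMI to 18.0 and 17.5 at 8 or more, and Mat1a from 0.925 and 0.696 to 0.255 and 0.0870.

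Barcodes with at least 2 UMIs of 1 gate gene and 0 of the other 3 are not members, and differed by which gene they held. Those with Rnd1 alone (96 and 136) had a median log2 ratio of 1.39 and 2.43 over the 14 highest genes. Those with Gbp5 alone (47 and 39) had 1.28 and 1.96. Those with Dennd4a alone (43 and 25) had 0.06 and 0.35. Cxcl10, for example, was at a ratio of 1.05 (0.838 to 1.32) and 1.0 (0.616 to 1.58) in barcodes with Dennd4a alone. With Gbp5 alone it was at 2.55 (2.10 to 3.08) and 5.53 (4.10 to 7.5), and with Rnd1 alone at 1.55 (1.34 to 1.79) and 7.79 (6.92 to 8.78). In the scramble library, barcodes with Dennd4a alone had a Cxcl2 ratio of 3.64 (1.99 to 6.74), against 0.631 (0.254 to 1.37) in the library labelled shBicd2. Tnfaip3 was at 1.98 (1.12 to 3.46), and the intervals of Cxcl1 and Nfkbia also lay above 1 in the scramble library. In the library labelled shBicd2 those of Irf1, at 1.95 (1.27 to 2.97), Ccl2, at 3.6 (1.71 to 7.67), and Pcyox1, at 11 (2.91 to 61.4), lay above 1. Barcodes with Ripk2 alone (12 and 17) were under the 20 matched barcodes required. Among members, those with most of their gate UMIs from Gbp5 (37 and 21) had medians of 1.78 and 1.94 over the 14 genes, and those with most from Rnd1 (148 and 182) had 2.20 and 2.83.

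EGFP transcripts, a reporter in the feature list whose construct the labels do not name, were more frequent in members. After thinning, EGFP was detected in 8.09% (5.44 to 11.5) of members against 2.84% (1.79 to 4.27) of comparators in the scramble library, and in 34% (28.9 to 39.5) against 14.5% (12.3 to 16.9) in the library labelled shBicd2. Before thinning the shares in the same barcodes were 14.5% against 4.26% and 51.2% against 21.9%. Members without an EGFP UMI had medians of 2.25 and 2.51 over the 14 highest genes, and members with one 2.76 and 2.98. Both were matched with comparators that were not filtered for EGFP. Hsp90ab1 and Hspa8, general chaperones, had ratios of 1.64 and 1.88 in the library labelled shBicd2 and 0.828 and 0.844 there when only barcodes without EGFP were compared. Members without 2 or more UMIs of any other-type marker list had medians of 2.31 and 2.62 over the 14 highest genes. Their comparators were not filtered for such markers. In deeper and shallower matched members, divided at their median depth, the medians were 2.49 and 2.27 in the scramble library and 2.72 and 2.62 in the library labelled shBicd2. The 14 genes were chosen as the highest in largely the same barcodes. High medians therefore follow from that choice, and all of these medians are a description.

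All 384 and 339 members, unmatched ones included, were last compared between the libraries, beside the same ratio in the matched comparators. Depth was not matched here, and member levels therefore differ from those of matched members above. With 1 library a group this compares libraries, not hairpins. Here a gene needed at least 50 UMIs over the members of both libraries together, so the genes covered differ from those measured above. Of 4816 such genes, 947 (19.7%) were at least 1.5-fold higher and 992 (20.6%) at least 1.5-fold lower in members of the library labelled shBicd2. No such count was made in comparators. EGFP was at 1375 against 103 CPM, a ratio of 13.4 (11 to 16.4) in members and 10.0 (7.85 to 13.0) in comparators. Srxn1, an antioxidant target of NRF2, had 71 against 4 UMIs, a ratio of 18.2 (6.80 to 68.6) in members and 7.31 in comparators. Ndrg1, a hypoxia-responsive gene, had 119 against 7 UMIs, a ratio of 17.4 (8.20 to 44.3), and 3.97 in comparators. Ppp4r4 had 51 against 3 UMIs, a ratio of 17.4 (5.64 to 87.3). The others of the 8 highest were Aqp8, S100a8, Fmo1 and Hist1h2ae, at ratios of 10.7 to 11.9. S100a8 is itself a neutrophil marker, at 105 against 9.35 CPM in members and 77.2 against 14.6 in comparators, and the part of neutrophil RNA in these library differences was not tested. Nrp1 led the lowest with a ratio of 0.117 in members and 0.132 in comparators. Cyp2c70, a bile acid hydroxylase, had 0.203 in members and 0.0838 in comparators. The others of the 8 lowest, Cobl, Zcchc24, Nfia, Dnajc3, Thrb and Trim2, had ratios of 0.146 to 0.201 in members and of 0.553 to 0.957 in comparators.

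Among genes named above, Ccl2 was at 1559 CPM over all members of the library labelled shBicd2 against 360 in the other. That was a ratio of 4.33 (3.87 to 4.85), against 1.83 (1.42 to 2.36) in comparators. Nfkbia had 1.82 (1.68 to 1.96) against 1.08 (0.962 to 1.21). Cxcl2 had 1.93 (1.83 to 2.05) against 2.23 (1.85 to 2.71). Cxcl10 had 0.874 (0.840 to 0.910) against 0.531 (0.484 to 0.582), and Gbp6 0.729 (0.672 to 0.792) against 0.378 (0.322 to 0.442). Mat1a had 1.01 (0.924 to 1.10) against 2.42 (2.33 to 2.5), and Hnf4a 0.380 (0.275 to 0.520) against 0.840 (0.708 to 0.996). Of the type I interferon list, 0 of 15 genes were higher in members of the library labelled shBicd2, by any amount. Of the immediate early list 16 of 17 were higher and of the interferon-inducible GTPases 8 of 15, against 2376 of all 4816 genes. These list counts were not made in comparators, so they do not set members apart from the rest of a library.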

How the data were processed

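The 2 libraries, 1 per group, were made with 10x Genomics 3' chemistry v3.1, per the labels. The authors deposited UMI counts per gene and barcode for 32287 features. The file headers name Cell Ranger 6.1.2, and the submitters' processing notes name Cell Ranger 6.0.1, Seurat 4.0.3 and build mm10. The sources used here do not say how intron reads were handled. Depth was 5086306 UMIs over 2805 barcodes (library labelled scramble, median 1505) and 5624055 over 3038 (library labelled shBicd2, median 1499). The libraries shared 3 barcode sequences. Doublets were kept, and their removal with Scrublet in scanpy 1.11.5 was an alternative.

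Counts were summed over matched barcodes within a library, divided by the total outside the gate genes, and compared as ratios with exact conditional binomial 95% intervals (scipy 1.17.1). Shares carry exact Clopper-Pearson intervals. Intervals cover counting error only. Classes by gate UMIs, single gate genes and EGFP were added after the data were seen. The procedure was tested on simulated data. Free RNA was not removed. The members and lists were chosen with earlier results of these data known. Named genes were the 14 highest and 14 lowest past 1.5-fold in both libraries, up to 4 genes per list with the most UMIs, and the 8 highest and 8 lowest between libraries, leaving out ribosomal, mitochondrial, globin, immunoglobulin and unnamed genes. Other list genes past the threshold were named in counts of few genes. Promoters are RefSeq's (GRCm38.p6), gene positions GENCODE's of the same build, matched by gene ID. Some genes that met these rules are not reported here.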

Additional observations from a re-analysis of the deposited data

Results flagged for a closer look

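The genes Bcl2l1, Xbp1 and Saa2 had ratios of members over comparators on opposite sides of 1 in the libraries, with both counting intervals clear of 1. The difference between the libraries was not tested, since each group has 1 library. Bcl2l1, which encodes the survival protein BCL-XL, was at 242 against 304 CPM in the scramble library, a ratio of 0.794 (0.651 to 0.964), and at 356 against 211 in that of shBicd2, a ratio of 1.68 (1.42 to 2.0). Xbp1, a transcription factor of the unfolded protein response, was at 808 against 603, a ratio of 1.34 (1.19 to 1.5), and at 436 against 740, a ratio of 0.589 (0.516 to 0.671). Saa2, an acute phase gene with the close copy Saa1, had ratios of 1.10 (1.06 to 1.13) and 0.729 (0.706 to 0.753).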

How the results depend on the processing

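All 14 highest and all 14 lowest genes stayed past 1.5-fold in the same direction in both libraries under each of the 11 alternatives for the comparison of members with comparators. They were chosen as the furthest from 1 in largely the same barcodes, so this is a description. The count of higher genes ran from 260 to 491 and that of lower genes from 350 to 1327. Rescaling to the median ratio gave 491 higher and 350 lower, and a minimum of 20 UMIs gave 1327 lower. With depth strata and all comparators, class I genes higher were 5 and sterol genes lower 10. With thinning to 1000 UMIs, class I genes higher were 5 and ER stress genes lower 3, with 3177 genes measured. Members made up 6.32% and 4.61% of thinned barcodes, 19.2% and 15.8% with a gate of 3 UMIs, and 9.30% and 7.54% with a gate of 6. Held-out Rnd1 was at a ratio of 4.39 (library labelled shBicd2) and Dennd4a at 3.86 (library labelled scramble) after thinning. Some named values had a counting interval clear of 1 in the main comparison and crossed 1 under an alternative. Named values whose interval held 1 were not screened for this, and some may have crossed 1 as well. In the library labelled scramble, those that crossed were Btg2 (0.995 with a gate of 6) and Malat1 (1.0 with rescaling). In the library labelled shBicd2 they were Hpx (1.17) and Xiap (1.12) with rescaling. Without EGFP barcodes, Glul (0.981), Hsp90ab1 (0.828) and Hspa8 (0.844) also crossed 1 there. For these changes the cause was not tested. The between-library counts stayed within 1.5 times. No paired analysis was possible because each group has 1 library.

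With medians of 1505 and 1499 UMIs a barcode, most genes are absent from most barcodes, so a gate of 4 UMIs misses cells of low depth. Genes under 50 UMIs over the matched members and comparators of a library were not measured in that comparison.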
